A study of Mus musculus with 16 samples.

Results

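The transcripts of 44 genes of DNA replication and mitosis were followed in bone and brain of Ali35 mice, a mutant line whose series title gives a mutation in the gene Shc2. The genes were chosen by symbol, and every probe of the deposited table of values that was annotated to one of them was taken. Probes were found for 40 of the 44 genes, 66 probes of 25697 in the table, which covers 16593 genes. None of the probes was annotated to Gins1, Ccnb1, Aurkb or Mki67, and these genes were not analysed here. The 40 genes comprised 16 of replication (29 probes) and 24 of mitosis (37 probes).

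The 16 one-colour Illumina bead arrays, 1 for each mouse, fell into 4 groups of 4 mice, all of strain C3H/HeJ. Wild-type and Ali35 mutant bone came from mice 120 days old, and wild-type and Ali35 mutant brain from 3-day pups: age differs wherever tissue does. The labels gave neither sex nor zygosity nor batch, and no treatment. The bone RNA held marrow: Hba-a1, an erythroid globin gene, read 30209.6 to 38608 and Ltf, a neutrophil granule gene, 21647 to 30660.2, while the neuronal gene Stmn2 reached at most 42.0. In brain Stmn2 read 5168 to 6060.4.

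The array of Ali35 bone replicate 1 stood apart from the other bone arrays. There the brighter probe of Xist, an RNA of female cells, read 221, against at most 11.7 elsewhere in bone. Eif2s3y, on the Y chromosome, read -2.50 there, against at least 409.6 elsewhere. On the brain arrays Xist read at most 5.72. Where they change without that array, bone calls of these genes and their replication and mitosis medians are therefore given in both ways. Other bone medians, and the calls of further genes and cell type markers, are given with all arrays only.

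Before a cell copies its DNA, the licensing factors Cdc6 and Cdt1 load the ring of Mcm2 to Mcm7 proteins onto replication origins. Cyclin E with its kinase then triggers firing, and polymerases, the clamp Pcna and enzymes that make deoxynucleotides carry out synthesis. After synthesis, Cdk1 with cyclins A and B, the transcription factor Foxm1 and the kinases Plk1 and Aurka drive entry into mitosis. Spindle proteins and motors then separate the chromosomes, and the anaphase-promoting complex with Cdc20 and Ube2c ends mitosis. In adult bone, dividing cells belong mainly to the marrow, among them red cell, granulocyte and B-cell precursors. In the newborn brain they are mainly neural and glial progenitors, such as the granule neuron precursors of the cerebellum.

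Replication genes are known for E2F sites near their start, and mitosis genes for a pair of elements, the cell cycle homology region (CHR) and CCAAT boxes. Promoters running from 250 bases before to 50 bases after the annotated start were in the RefSeq table (build GRCm38.p6) for 35 of the 44 genes. They were searched on both strands for TTTGAA or TTCGAA (CHR), for CCAAT, and for the E2F octamers TTTGGCGC, TTTCCCGC, TTTGCCGC and TTTCGCGC. None of these letter strings contains another. Among 21 mitosis genes 17 held a CHR match (81.0%), 19 a CCAAT match (90.5%) and 17 both (81.0%), against 21.7%, 41.1% and 8.61% of all 27025 genes with a promoter in the table. In 16 mitosis genes a CHR match began within 60 bases of the start. Among 14 replication genes 7 held an E2F match (50%), against 2.61% of all genes and 1 of the 21 mitosis genes (4.76%). A CHR match was found in 2 of these 14 (14.3%) and a CCAAT match in 10 (71.4%). A match is a description of letters in the C57BL/6J reference, not of a site in use in these C3H/HeJ mice.

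The sequences below are those of the genes whose transcripts were called changed in the comparisons that follow and whose promoter was in the table. Each runs from 110 bases before to 40 bases after the start, read 5′ to 3′ along the gene, and capitals mark the matches. Foxm1 and Ccne2, also called changed, had no promoter in the table.
Cdt1 (chr8:122567905-122568054, plus strand): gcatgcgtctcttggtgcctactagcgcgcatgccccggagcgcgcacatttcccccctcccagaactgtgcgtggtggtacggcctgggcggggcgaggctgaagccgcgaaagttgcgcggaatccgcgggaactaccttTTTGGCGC
Tyms (chr5:30073586-30073735, minus strand): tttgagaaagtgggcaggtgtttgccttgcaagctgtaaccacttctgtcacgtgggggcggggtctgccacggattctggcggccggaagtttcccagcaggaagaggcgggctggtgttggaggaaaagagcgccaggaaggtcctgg
Plk1 (chr7:122159325-122159474, plus strand): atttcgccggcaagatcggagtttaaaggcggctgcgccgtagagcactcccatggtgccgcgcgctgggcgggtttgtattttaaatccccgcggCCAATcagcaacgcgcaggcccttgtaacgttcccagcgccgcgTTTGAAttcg
Cdk1 (chr10:69352873-69353022, minus strand): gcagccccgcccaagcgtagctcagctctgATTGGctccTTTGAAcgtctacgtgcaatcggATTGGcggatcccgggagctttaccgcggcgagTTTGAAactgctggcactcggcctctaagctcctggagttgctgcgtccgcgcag
Nusap1 (chr2:119618188-119618337, plus strand): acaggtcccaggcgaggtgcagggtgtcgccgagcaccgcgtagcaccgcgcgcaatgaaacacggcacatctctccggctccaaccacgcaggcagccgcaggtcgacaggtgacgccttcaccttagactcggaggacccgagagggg
Cdc20 (chr4:118437304-118437453, minus strand): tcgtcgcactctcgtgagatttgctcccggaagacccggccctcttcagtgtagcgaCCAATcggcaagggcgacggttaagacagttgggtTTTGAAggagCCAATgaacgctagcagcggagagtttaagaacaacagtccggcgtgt
Cdca3 (chr6:124830066-124830215, plus strand): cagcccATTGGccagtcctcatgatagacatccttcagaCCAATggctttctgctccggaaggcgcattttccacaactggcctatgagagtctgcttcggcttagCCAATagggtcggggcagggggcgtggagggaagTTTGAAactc

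The promoters of Plk1, Cdk1, Cdc20 and Cdca3 each carried TTTGAA and at least 1 CCAAT box on either strand (written ATTGG where it lies on the opposite strand). That of Cdt1 carried TTTGGCGC just after the start. Neither Tyms nor Nusap1 had a match in the window printed or in the rest of the 300 bases searched. Cdt1 and Plk1, called higher in bone, thus held unlike matches, E2F in the first and CHR with CCAAT in the second. Of the genes called lower in bone, Cdk1 held CHR, CCAAT and E2F matches, and Tyms and Nusap1 held none. The E2F match of Cdk1 (TTTCGCGC) lay upstream of the printed stretch. Beside these stand the shares of 81.0% with CHR among the 21 mitosis genes and 50% with E2F among the 14 replication genes. Whether a match goes with the direction of change was not tested.

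In bone, 49 probes of 33 of the genes were bright enough to test, which means an intensity of at least 16 on at least 4 of the 8 arrays. Their mean intensities ran from near the floor of 16, below which values were set to 16, up to 7638 for Cenpa, the histone variant that marks centromeres. The median gene stood at the 89.7th percentile of all probes of the table. Pola1 and Prim1, subunits of the polymerase that lays the first stretch of new DNA, were too dim, as were the mitosis genes Ccnb2, Bub1, Ttk, Cenpe and Kif20a. Of these 7 genes only Ttk reached 16 on any bone array, with 12.1, 11.5, 7.36 and 17.8 on the Ali35 arrays.

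The wild-type bone arrays lay close together and the Ali35 bone arrays lay far apart. The mean log2 intensity of the 14 tested replication genes was 9.49, 9.54, 9.58 and 9.51 on the wild-type arrays and 9.18, 9.66, 9.75 and 9.33 on the Ali35 arrays. For the 19 tested mitosis genes it was 9.16, 9.23, 9.27 and 9.22 on the wild-type arrays and 8.86, 9.32, 9.38 and 9.14 on the Ali35 arrays. Both classes thus had the same order of Ali35 arrays: replicate 1 lowest, then replicate 4, with replicates 2 and 3 above every wild-type array.

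**Figure D1:**
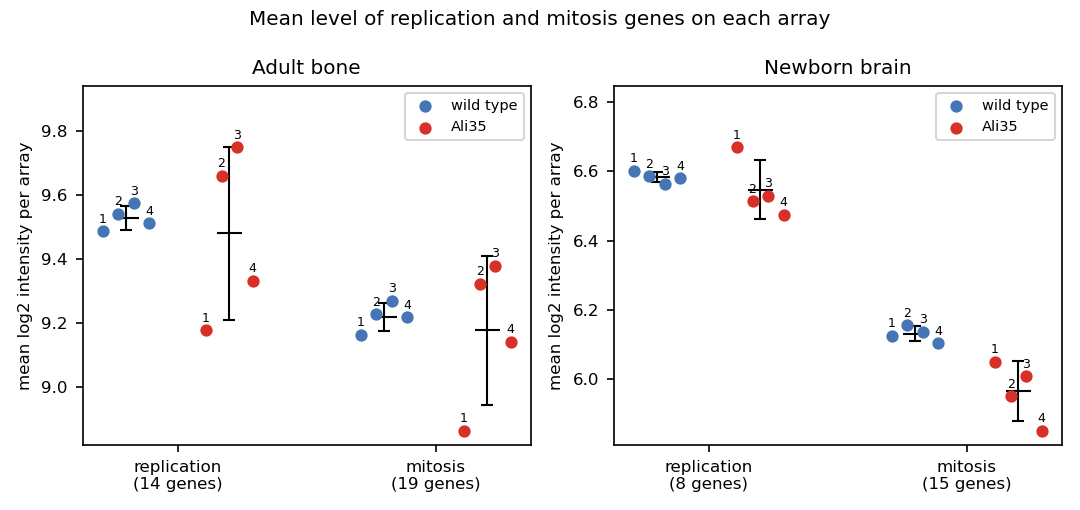
Mean log2 intensity of the tested replication genes and mitosis genes on each array (points, numbered by replicate), in adult bone (left) and newborn brain (right), with the mean and SD over 4 mice in black. The Ali35 arrays spread more widely than the wild-type arrays in both tissues and both classes. In bone they spread around the narrow wild-type group, and in brain the 4 Ali35 arrays lie below the wild-type arrays for mitosis genes only.

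Over all 33 genes the SD of these array means was 0.041 in wild type and 0.247 in Ali35. Gene by gene, the SD of the log2 intensity was larger in Ali35 than in wild type for 31 of 33 genes (93.9%), against 61.4% of all 12223 probes tested in bone. Ali35 replicate 1 was the lowest Ali35 array for 26 of the 33 genes (78.8%), against 32.1% of all probes. Ali35 replicates 1 and 4 were both below replicates 2 and 3 for 21 genes (63.6%), against 22.3% of all probes, an order that was singled out after it had been seen. Among 40 further replication genes, replicate 1 was the lowest Ali35 array for 37 (92.5%), and among 39 further mitosis genes for 31 (79.5%). Replicate 1 is also the array with the Xist signal. Without it the SD of the Ali35 array means was 0.165, and the SD was larger in Ali35 for 23 of the 33 genes (69.7%), against 53.2% of all probes. No p-value was computed for the spread.

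**Figure D2:**
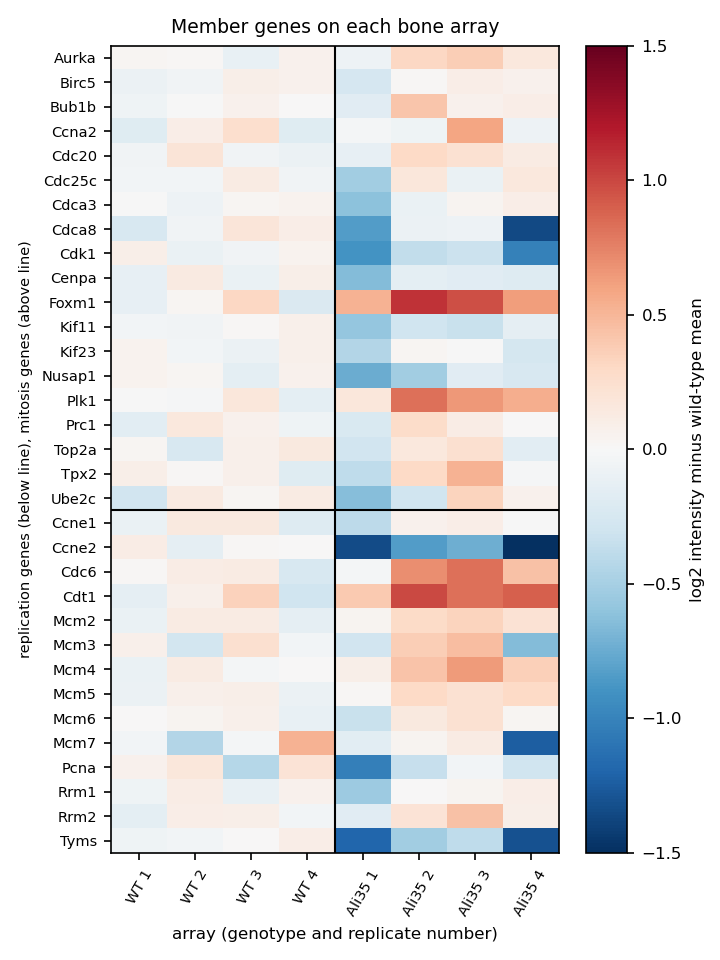
Log2 intensity of each tested gene (rows, brightest probe) on each bone array (columns) minus the wild-type mean of that gene; red is above and blue below, and values beyond 1.5 take the end colour. Cdt1, Foxm1 and Plk1 are red on all 4 Ali35 arrays, Ccne2, Tyms and Cdk1 are blue on all 4, and most other rows are bluest on Ali35 replicate 1.

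The bone comparison asked how the levels of these genes in Ali35 bone differed from wild type. Cdt1, Foxm1 and Plk1 were higher, and Tyms, Ccne2, Cdk1 and Nusap1 (the last called on a dimmer probe only) were lower. A probe was called at a Benjamini-Hochberg adjusted p under 0.05 over all probes tested in bone (limma). Of the 49 probes 10 were called (20.4%), 4 higher and 6 lower, while over all probes tested 24.6% were called, 12.7% higher and 11.9% lower. At an unadjusted p under 0.05 there were 14 of 49, against 38.3% of all probes. Groups of arrays did not overlap for 3 probes with Ali35 higher and 9 with Ali35 lower, against 13.5% and 15.2% of all probes. A dim Tyms probe, counted among the 6 called lower and these 9, passed the brightness filter through its wild-type arrays. The shares called among these genes were thus near or below those of the whole array. Of the 49 changes 29 were negative, against 54.7% over all probes. The median log2 change was -0.003 over the 14 replication genes and -0.02 over the 19 mitosis genes, beside -0.04 over all probes tested. Without Ali35 replicate 1 these medians turned to 0.10 and 0.08, while that of all probes stayed at -0.04. On bulk RNA, fewer cells of a type and less RNA per cell cannot be told apart. Without Ali35 replicate 1 the same 10 probes and those of Cdc6 and Mcm4 were called, 6 higher and 6 lower. Without wild-type replicate 4 the count was 6, 3 each way.

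Among the origin-licensing genes, Cdt1, which recruits the Mcm ring to origins, read 802, 929, 1123 and 718 on the wild-type arrays and 1152, 1745, 1563 and 1638 on the Ali35 arrays. All 4 Ali35 arrays were above all wild-type arrays, and replicate 1 was the nearest to them. The mean went from 893 ± 176 to 1524 ± 259 in Ali35 (mean ± SD, 4 mice in each group), a log2 change of 0.77 ± 0.17 SE (1.71-fold, adjusted p = 0.0126, limma). Cdt1 was the largest rise among the replication genes and kept its call without each array in turn.

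Cdc6, the partner of Cdt1 in licensing, read 589.7, 629, 635 and 494 on the wild-type arrays and 573, 949, 1034 and 791 on the Ali35 arrays. The Ali35 array of replicate 1 lay among the wild-type arrays and the other 3 above them, and the log2 change of 0.48 ± 0.18 did not pass (adjusted p = 0.0788). Mcm4 read 3711, 4329, 3884 and 3969 on the wild-type arrays and 4213, 5335, 6165 and 5099 on the Ali35 arrays, with a log2 change of 0.38 ± 0.13 (adjusted p = 0.0559). For Mcm4 too, Ali35 replicate 1 lay within the wild-type range. Without that array Cdc6 had 0.65 ± 0.14 (adjusted p = 0.0153) and Mcm4 had 0.48 ± 0.11 (adjusted p = 0.0211), and both then passed.

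The other subunits of the Mcm ring did not pass. Mcm2 read 1536, 1793, 1796 and 1497 on the wild-type arrays and 1697, 2017, 2086 and 1910.3 on the Ali35 arrays, a log2 change of 0.22 ± 0.11 with groups that overlap (adjusted p = 0.181). Mcm5 read 3456, 3886, 3909 and 3463 on the wild-type arrays and 3707, 4511, 4296 and 4511 on the Ali35 arrays, a log2 change of 0.21 ± 0.11 (adjusted p = 0.18). For both, Ali35 replicates 2, 3 and 4 were above all wild-type arrays and replicate 1 among them.

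Mcm6 read 2103, 2162, 2208 and 1943 on the wild-type arrays and 1669.6, 2332, 2468 and 2149 on the Ali35 arrays on its brightest probe, with a log2 change of 0.02 ± 0.13, and its other tested probes had 0.19 and -0.06. Mcm3 read 395, 310.1, 443 and 366 on the wild-type arrays and 309, 484, 516 and 239 on the Ali35 arrays and its Ali35 arrays lay on both sides of wild type (-0.03 ± 0.24). Mcm7 was dim, with 36.5, 27.7, 36.9 and 54.0 on the wild-type arrays and 33.8, 38.8, 41.2 and 7.24 on the Ali35 arrays, and most of its log2 change of -0.31 ± 0.30 came from Ali35 replicate 4, which was below the floor. Of the 8 licensing genes 6 had positive changes, with a median of 0.21.

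Among the genes of synthesis and nucleotide supply, Tyms, whose enzyme thymidylate synthase makes the thymine nucleotide of DNA, read 2383, 2432, 2503 and 2668 on the wild-type arrays and 1091, 1734, 1913 and 1007 on the Ali35 arrays on its brightest probe. Every Ali35 array was below every wild-type array, and replicates 1 and 4 were lowest. Mean Tyms intensity fell from 2497 ± 124 to 1436 ± 454, or 1.81-fold, with -0.85 ± 0.20 on the log2 scale (adjusted p = 0.0164).

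Of the other Tyms probes, one fell from 323 ± 17.5 to 172 ± 37.2 (log2 -0.93 ± 0.15, adjusted p = 0.00346) and a dim one from 23.1 ± 2.84 to 14.95 ± 2.57 (-0.48 ± 0.12, adjusted p = 0.0173), with 3 of its 4 Ali35 values below the floor. That dim probe passed the brightness filter through its 4 wild-type arrays, so its call is no further support for the fall of Tyms. The fourth tested probe, at the floor on part of the arrays, had -0.19 ± 0.17 and did not pass (adjusted p = 0.43). The brightest and the next brightest probe of Tyms kept their calls without each array in turn. The dim probe lost its call without wild-type replicate 1 or 4 (adjusted p up to 0.0542), and with a floor of 32 its change was 0.

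Pcna, the sliding clamp of the replicative polymerases, read 167, 180.4, 119 and 184 on the wild-type arrays and 78.5, 127, 156 and 130.0 on the Ali35 arrays. The groups overlapped, and the log2 change of -0.43 ± 0.22 did not pass (adjusted p = 0.181). Rrm1 and Rrm2 encode the large and small subunits of ribonucleotide reductase, which makes deoxynucleotides. Rrm1 had -0.10 ± 0.15. Rrm2 read 489.6, 577, 574 and 527 on the wild-type arrays and 482, 624, 733 and 576 on the Ali35 arrays on its brightest probe, a log2 change of 0.14 ± 0.14, and its other probe had -0.14, so its probes differed in sign. Neither gene passed.

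The cyclin E genes parted. Ccne2 read 308, 259, 287 and 286 on the wild-type arrays and 112, 159, 171 and 88.8 on the Ali35 arrays, with all Ali35 arrays below all wild-type arrays and replicates 1 and 4 again lowest. Its mean fell from 285 ± 20.2 to 133 ± 38.9, or 2.21-fold, with -1.15 ± 0.20 on the log2 scale (adjusted p = 0.0048), the largest change among the 33 genes, and it kept its call without each array in turn. Ccne1 read 375, 444, 444 and 352 on the wild-type arrays and 305, 421, 432 and 402 on the Ali35 arrays, with overlapping groups and a log2 change of -0.06 ± 0.14 (adjusted p = 0.798). Whether the change of Ccne2 differed from that of Ccne1 was not tested.

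**Figure D3:**
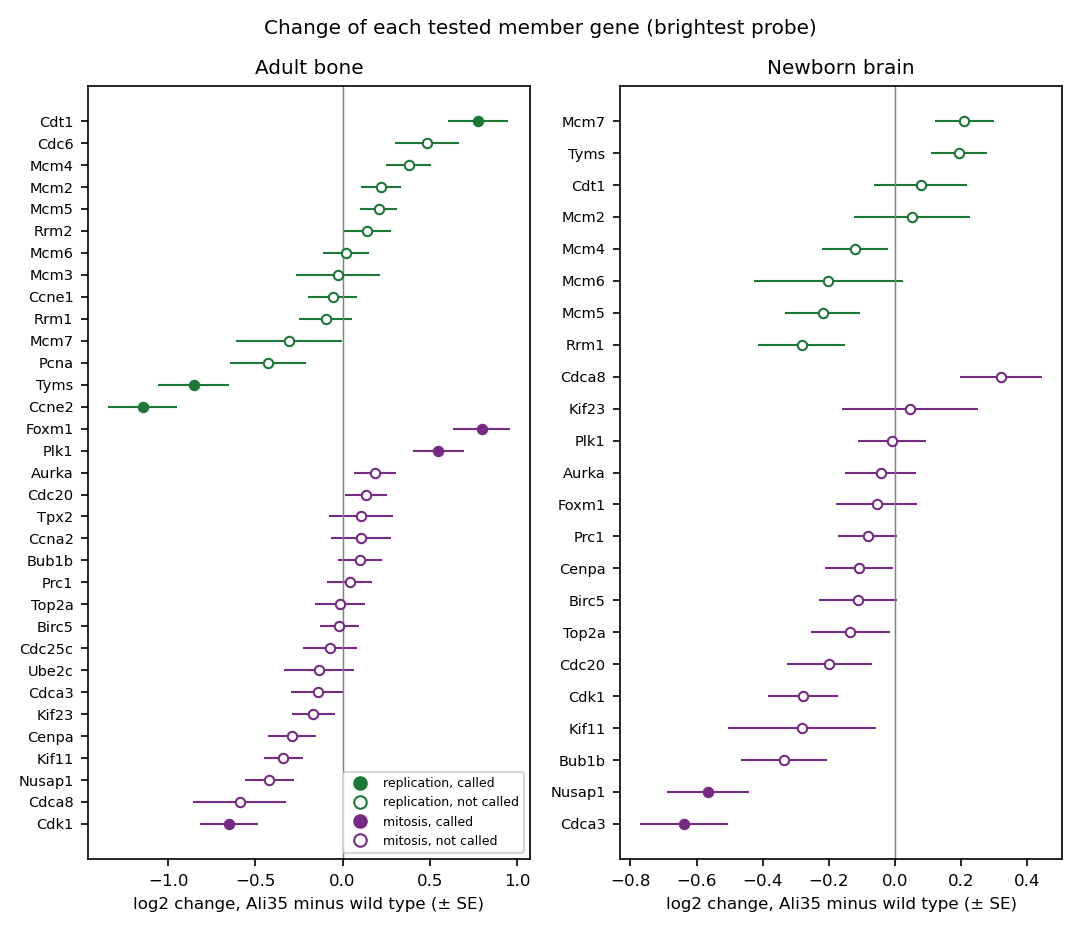
Log2 change (Ali35 minus wild type, point) with its SE (bar) for the brightest probe of each tested gene, in bone (left) and brain (right); green marks replication genes, purple mitosis genes, and filled points passed an adjusted p under 0.05. In bone, called genes lie at both ends of both classes, from Ccne2 at -1.15 to Foxm1 at 0.80, and in brain the called genes Nusap1 and Cdca3 lie at the low end of the mitosis genes.

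Among the regulators of mitotic entry, Foxm1, the transcription factor that activates many mitosis genes, read 141, 158, 191 and 133 on the wild-type arrays and 220.5, 326, 300.2 and 238 on the Ali35 arrays on its brighter probe. All Ali35 arrays were above all wild-type arrays. The mean rose from 156 ± 25.5 to 271 ± 50.1, a log2 change of 0.80 ± 0.16 (1.74-fold, adjusted p = 0.00872), and the second probe gave 0.78 ± 0.18 (adjusted p = 0.0134). Both probes kept their calls without each array in turn.

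Plk1, a kinase of mitotic entry and spindle assembly, read 609, 602, 689.7 and 549.9 on the wild-type arrays and 688, 1083, 959.5 and 893 on the Ali35 arrays. Ali35 replicate 1 fell just below the highest wild-type array and the other Ali35 arrays were above it. The mean rose from 613 ± 57.8 to 906 ± 166 (log2 0.55 ± 0.15, adjusted p = 0.0245). The call was lost without wild-type replicate 1, 2 or 4 or without Ali35 replicate 2 or 3, with an adjusted p up to 0.0724, and without Ali35 replicate 1 the log2 change was 0.68 ± 0.12 (adjusted p = 0.00869).

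Cdk1, the kinase that carries the cell into mitosis, moved the other way. It read 1710.0, 1504, 1549.9 and 1672 on the wild-type arrays and 865, 1246, 1284 and 794 on the Ali35 arrays, with all Ali35 arrays below all wild-type arrays. Mean Cdk1 intensity fell from 1609 ± 97.8 to 1047 ± 254, or 1.57-fold, with -0.65 ± 0.17 on the log2 scale (adjusted p = 0.0214). Without wild-type replicate 1 or 4 the call was lost, with an adjusted p up to 0.0595. Its other probes stayed below the floor on every bone array.

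The remaining genes of entry did not pass in bone. Aurka, a kinase of spindle poles, had 0.19 ± 0.12. Cdc25c, the phosphatase that activates Cdk1, had -0.07 ± 0.15. Ccna2, cyclin A, was dim and read 7.05 to 27.2.

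None of the 4 tested genes of the centromere and checkpoint group passed in bone. Cenpa read 7667, 9179.7, 7805 and 8860.0 on the wild-type arrays and 5310.3, 7546, 7424 and 7309 on the Ali35 arrays, so that all Ali35 arrays were below all wild-type arrays, but its log2 change of -0.29 ± 0.14 did not pass (adjusted p = 0.148). Bub1b, a kinase of the spindle checkpoint, had 0.10 ± 0.13.

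Cdca8, which encodes borealin of the chromosomal passenger complex, read 384, 438, 516 and 485 on the wild-type arrays and 254, 426, 428 and 178 on the Ali35 arrays. Ali35 replicates 1 and 4 were far below and replicates 2 and 3 within the wild-type range (-0.59 ± 0.27, adjusted p = 0.134). Birc5, survivin of the same complex, had -0.02 ± 0.11 on its brightest probe and -0.42 and -0.30 on the others.

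Among spindle and cytokinesis genes, Nusap1, a protein that bundles spindle microtubules, was lower. Its brightest probe read 3113, 3069, 2708 and 3140.1 on the wild-type arrays and 1785, 2088, 2672 and 2545 on the Ali35 arrays, with all Ali35 arrays below all wild-type arrays, and its log2 change of -0.42 ± 0.14 just missed the threshold (adjusted p = 0.0537). A dimmer probe of Nusap1 read 54.4, 77.9, 65.8 and 63.5 on the wild-type arrays and 27.3, 48.4, 48.9 and 38.1 on the Ali35 arrays, also with no overlap. It fell from 65.4 ± 9.66 to 40.7 ± 10.2 (log2 -0.71 ± 0.19, adjusted p = 0.0265) and was called. That call was lost without wild-type replicate 2, 3 or 4 or without Ali35 replicate 4, with an adjusted p up to 0.0683. Without Ali35 replicate 1 the dimmer probe had -0.53 ± 0.15 (adjusted p = 0.0382) and the brightest -0.31 ± 0.12 (adjusted p = 0.1). A further probe, too dim to be tested, read 20.5, 33.8, 15.96 and 25.6 on the wild-type arrays and 7.84, 8.03, 12.2 and 11.4 on the Ali35 arrays.

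Kif11, the motor that pushes spindle poles apart, read 484, 481, 507 and 527 on the wild-type arrays and 333, 405, 398 and 454 on the Ali35 arrays. The groups did not overlap, and the log2 change of -0.34 ± 0.11 did not pass (adjusted p = 0.0544). Kif23 and Prc1, both of the central spindle, had -0.17 ± 0.12 and 0.04 ± 0.13, and Tpx2, a spindle assembly factor, had 0.11 ± 0.18.

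Of the genes of chromosome structure and mitotic exit, none passed in bone. Top2a, the topoisomerase that untangles sister chromosomes, read 2151, 1791, 2219 and 2329.6 on the wild-type arrays and 1724, 2348, 2496 and 1898 on the Ali35 arrays. Its means were nearly equal, 2122 ± 233 to 2117 ± 365, with a log2 change of -0.01 ± 0.14. The 4 tested probes of Cdc20, the activator of the anaphase-promoting complex, had 0.13, 0.11, 0.18 and -0.30. The brightest probe of Cdca3, a trigger of entry into mitosis, had -0.14 ± 0.15. Ube2c, the ubiquitin-conjugating enzyme of the complex, was dim and had -0.13 ± 0.20.

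**Figure D4:**
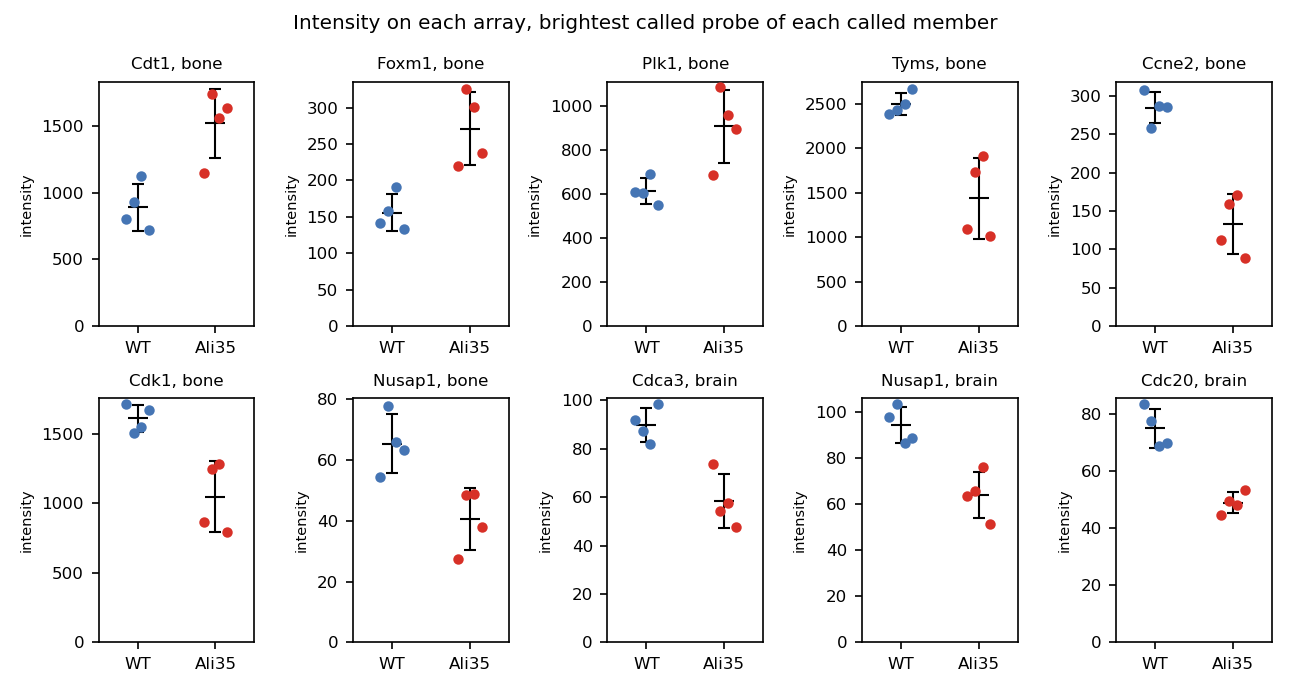
Intensity on each array (points, replicates 1 to 4 from left to right) for the brightest called probe of each called gene, with the mean and SD over 4 mice; each axis starts at 0. Only for Plk1 in bone do the wild-type and Ali35 arrays overlap.

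Of the 33 genes, 10 had more than 1 tested probe in bone, and in 7 of the 10 all these probes changed in the same direction. An alternative fit, chosen after the data had been seen, had the mean log2 value of the further replication and mitosis genes as a covariate. The same 10 probes were called, with 2 more: Cdc6 (0.60 ± 0.12, adjusted p = 0.00961) and Mcm4 (0.45 ± 0.09, adjusted p = 0.0124). Cdt1 then had 0.85 ± 0.15, Foxm1 0.87 ± 0.14, Cdk1 -0.58 ± 0.15 and Ccne2 -1.07 ± 0.19. The further genes had called probes of their own in bone, 15 of 58 for mitosis and 7 of 54 for replication. This fit therefore cannot separate array differences from genotype.

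Further genes of the same pathways, given here with all bone arrays only, showed called changes in both directions in bone too. Of 58 probes of 39 other mitosis genes 15 were called (25.9%), with 5 genes higher and 6 lower. Ncapd2, a subunit of condensin, read 538, 517, 739.6 and 548 on the wild-type arrays and 955, 1548, 1534 and 1268 on the Ali35 arrays and rose 2.25-fold (log2 1.17 ± 0.18, adjusted p = 0.00291). Gtse1, a microtubule-associated protein of mitosis, had 0.62 ± 0.16 (adjusted p = 0.0198), and Espl1, the separase that cuts cohesin, had 0.86 ± 0.18 (adjusted p = 0.00946). The other genes that rose were Ccnf and Incenp. The 6 genes that fell were Ndc80, Spc24 and Spc25, all subunits of the kinetochore's Ndc80 complex, together with the checkpoint gene Mad2l1, the motor gene Kif18a and Shcbp1. Spc25 fell from 525 ± 17.9 to 332 ± 86.4 (log2 -0.70 ± 0.17, adjusted p = 0.0184) and Ndc80 from 394 ± 36.2 to 259.8 ± 56.1 (-0.62 ± 0.16, adjusted p = 0.022). The remaining subunit, Nuf2, was not tested, since its probe read at most 1.90 on the bone arrays. These genes besides Ncapd2, Gtse1 and Espl1 were singled out after their values had been seen.

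Of 54 probes of 40 other replication genes 7 were called (13.0%), with 2 genes higher and 4 lower. Pole, the leading-strand polymerase, had 0.66 ± 0.14 (adjusted p = 0.0114), and Dnmt1, which copies DNA methylation onto the new strand, 0.59 ± 0.13 (adjusted p = 0.0127). Nasp, a histone chaperone, Rfc4, a subunit of the clamp loader, and Rpa3, a subunit of the single-strand binding complex, were among those that fell.

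Of 50 probes of 28 cell cycle regulators 11 were called (22.0%). Fzr1, an activator of the anaphase-promoting complex, rose (0.52 ± 0.12 on its brightest probe, adjusted p = 0.0166). Pkmyt1, a kinase that holds Cdk1 inactive, read 25.3, 42.4, 52.9 and 26.9 on the wild-type arrays and 68.8, 91.4, 67.7 and 99.7 on the Ali35 arrays and rose 2.30-fold (log2 1.20 ± 0.25, adjusted p = 0.00894), with no overlap. Cyclin G1, Ccng1, had -0.25 ± 0.18 on its brightest probe, which did not pass, while 2 dimmer probes were called lower (-0.74 and -0.76). The shares called in these 3 lists lay between 13.0% and 25.9%, near or below the 24.6% of all probes.

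Markers of several cell types of bone and marrow moved between the same arrays. The summed level of 8 tested B-cell precursor genes was 4330 to 4857 in wild type and 2606 to 4063 in Ali35, and Cd79b (-0.55 ± 0.13) and the recombinase gene Rag1 fell. The summed level of 9 erythroid genes was 81983 to 89121 in wild type and 82359 to 99690 in Ali35, and Gata1 was called higher among them. For 10 neutrophil precursor genes the sums were 91132 to 106633 and 99631 to 122663, with Mpo and Ltf called higher and Chil3 lower. Of these calls only 1, a higher one, was on the brightest probe of its gene. The mean log2 intensity of the 10 genes was 12.70 to 12.95 in wild type and 12.73 to 13.09 in Ali35, with 5 changes positive and 5 negative. For 6 megakaryocyte genes the sums were 15638 to 17669 and 13962 to 16392, with Itga2b and Vwf called higher. The mean log2 intensity of these 6 genes went the other way, with 10.79 to 10.90 in wild type and 10.93 to 11.06 in Ali35.

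Sums of 5 cartilage genes were 2168 to 4309 in wild type and 8985 to 12572 in Ali35, and those of 7 osteoblast genes 17999 to 27105 and 25442 to 41111. Ali35 replicate 1, the array lowest for the replication and mitosis genes, had the highest cartilage and osteoblast sums of the 8 arrays, the lowest B-cell precursor sum of the 8 and the lowest erythroid sum of the 4 Ali35 arrays. Ali35 replicate 4, the next lowest, had the highest B-cell precursor and erythroid sums of the Ali35 arrays and the lowest osteoblast sum among them. Sums follow the brightest genes, and the mean log2 intensity gave another order. For B-cell precursor genes it was 7.10, 7.55, 7.55 and 7.45 on Ali35 replicates 1 to 4, and for erythroid genes 11.57, 11.86, 11.92 and 11.80. Replicate 4 was thus next lowest in both, and its osteoblast mean of 10.58 was above the 10.54 of replicate 2. All 4 called cartilage genes (Col2a1, Acan, Comp, Chad) and all 4 called osteoblast genes (Col1a1, Col1a2, Sp7, Alpl) were higher. For 4 endothelial genes the sums were 1840 to 2117 and 2042 to 2349, with Cdh5 higher, and for 5 macrophage genes 2529 to 2680 and 2203 to 2753, with Cx3cr1 higher and Aif1 lower. Of the lists for brain cells, 0 of 6 granule neuron precursor genes and 2 of 8 neuronal genes were bright enough to test in bone, the latter summing to at most 66.5 on any array. Of 4 oligodendrocyte lineage genes tested Cspg4 was called higher and Mbp lower, and of 4 neural progenitor genes, led by Vim, none was called. The part of these cell types in the changes of replication and mitosis genes was not tested.

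In newborn brain the same genes stood lower and fewer could be tested: 32 probes of 23 genes, 8 of replication and 15 of mitosis. The mean intensities of these probes ran from 14.4 to 423, and the median gene stood at the 75.5th percentile. The brain comparison asked the same question of Ali35 pups. The mitosis genes Cdca3, Nusap1 and Cdc20 (the last called on a dimmer probe only) were lower, and no replication gene was called. Of the 32 probes 4 were called (12.5%), all lower, while 3.64% of all 10922 probes tested in brain were called, 1.9% higher and 1.74% lower. At an unadjusted p under 0.05 there were 11 of 32 probes, 2 of them of replication genes, against 23.6% of all probes. Groups of arrays did not overlap for 2 probes with Ali35 higher and 5 with Ali35 lower, against 8.78% and 6.88% of all probes. These include the Mcm7 probe, with Ali35 higher, and the dimmer Cdca3 probe, with Ali35 lower. Each passed the brightness filter through the group where it was high, and that Cdca3 probe is also among the 4 called.

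The mean log2 intensity of the 15 mitosis genes was 6.13, 6.16, 6.14 and 6.10 on the wild-type brain arrays and 6.05, 5.95, 6.01 and 5.85 on the Ali35 arrays. Every Ali35 array was below every wild-type array. For the 8 replication genes the means were 6.60, 6.59, 6.56 and 6.58 in wild type and 6.67, 6.51, 6.53 and 6.48 in Ali35, with replicate 1 above and the other 3 below the wild-type arrays. Over all 23 tested genes the SD of the array means was 0.014 in wild type and 0.083 in Ali35. Gene by gene the SD was larger in Ali35 for 17 of the 23 (73.9%), against 59.1% of all probes. Without Ali35 brain replicate 1 the SD of the Ali35 means was 0.062, and the share was 65.2%, against 54.3% of all probes. The log2 change was negative for 13 of 15 mitosis genes, with a median of -0.11, and for 4 of 8 replication genes, with a median of -0.03, beside 48.4% negative and a median of 0.01 over all probes. Among 21 further mitosis genes the array means overlapped, with 5.80, 5.86, 5.73 and 5.82 in wild type and 5.85, 5.78, 5.76 and 5.73 in Ali35, and 12 of the 21 changes were negative (median -0.04). Whether the classes or lists differed was not tested.

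Cdca3 read 91.9, 87.3, 81.8 and 98.4 on the wild-type arrays and 73.7, 54.4, 57.7 and 47.7 on the Ali35 arrays on its brighter probe. All Ali35 arrays were below all wild-type arrays. Mean intensity fell from 89.8 ± 7.05 to 58.4 ± 11.0 (± SD over 4 pups), or 1.56-fold, with -0.64 ± 0.13 on the log2 scale (adjusted p = 0.0371). The dimmer probe fell from 28.8 ± 2.50 to 16.3 ± 3.27 (-0.73 ± 0.11, adjusted p = 0.0164), also with no overlap, but 2 of its 4 Ali35 values were below the floor. That probe passed the brightness filter through its 4 wild-type arrays. It kept its call without each array in turn, but with a floor of 32 its change was -0.001 (adjusted p = 1). The brighter probe kept it only without Ali35 replicate 1 and lost it without each of the other 7, with an adjusted p up to 0.108.

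Nusap1 read 97.8, 103, 86.7 and 88.9 on the wild-type arrays and 63.3, 65.5, 75.9 and 51.5 on the Ali35 arrays, again with no overlap between the groups. It fell from 94.2 ± 7.82 to 64.1 ± 10, or 1.48-fold, with -0.57 ± 0.12 on the log2 scale (adjusted p = 0.0419). Its call was kept without Ali35 replicate 3 and lost without each of the other 7 arrays, with an adjusted p up to 0.117.

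Cdc20 was called on 1 of its 4 tested probes. That probe read 83.6, 77.4, 68.8 and 69.8 on the wild-type arrays and 44.7, 49.3, 48.0 and 53.4 on the Ali35 arrays, with no overlap, and fell from 74.9 ± 6.96 to 48.9 ± 3.61 (-0.61 ± 0.10, 1.53-fold lower, adjusted p = 0.0207). Its other probes had -0.25, -0.20 and -0.11 and did not pass. The call was lost without wild-type replicate 1 or 4, with an adjusted p up to 0.059.

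The number of called probes in brain was 1 without wild-type replicate 1 or 4 and 2 without wild-type replicate 2 or 3 or Ali35 replicate 2 or 4. It was 3 without Ali35 replicate 1 or 3. With the mean of the further cell cycle genes as a covariate, chosen after the data had been seen, it was 0, and only 39 of all probes were then called. The changes were then -0.60 ± 0.12 for Cdc20, -0.45 ± 0.12 for Nusap1 and -0.73 ± 0.13 and -0.52 ± 0.14 for the dimmer and brighter Cdca3 probes, with adjusted p from 0.0578 to 0.121. Without the filter for brightness it was also 0, with 19 of 25697 probes called.

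The other mitosis genes in brain did not pass. Cdk1 read 54.1, 47.5, 50 and 50.2 on the wild-type arrays and 49.4, 37.0, 40.9 and 40.0 on the Ali35 arrays (-0.28 ± 0.11, adjusted p = 0.152), Bub1b had -0.34 ± 0.13 and Kif11 had -0.28 ± 0.22. Top2a read 117, 123, 109 and 102 on the wild-type arrays and 121, 106, 101 and 85.2 on the Ali35 arrays, with overlapping groups and a log2 change of -0.13 ± 0.12. A Birc5 probe had Ali35 below wild type on all arrays (-0.42 ± 0.13, adjusted p = 0.0898), and its other probes had -0.11 and -0.20.

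Plk1 (-0.01), Aurka (-0.04), Cenpa (-0.11), Prc1 (-0.08), Kif23 (0.05) and Foxm1 (-0.06 and -0.26) had small log2 changes. Cdca8 had the largest positive one and read 42.6, 41.1, 53.3 and 38.5 on the wild-type arrays and 48.3, 51.4, 57.0 and 61.7 on the Ali35 arrays (0.32 ± 0.12, adjusted p = 0.156). Its groups overlapped through 1 wild-type array.

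Of the replication genes in brain, Mcm4 was the brightest and read 443, 421, 472 and 423 on the wild-type arrays and 441, 347, 417 and 417 on the Ali35 arrays (-0.12 ± 0.10). Mcm5 read 198, 194, 200.3 and 178 on the wild-type arrays and 183, 138, 189 and 156 on the Ali35 arrays (-0.22 ± 0.11), and Mcm2 read 57.0, 68.8, 45.9 and 57.1 on the wild-type arrays and 72.8, 63.2, 61.4 and 41.9 on the Ali35 arrays (0.05 ± 0.18). The groups overlapped for all 3.

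The 3 tested Mcm6 probes had -0.20, -0.17 and -0.34, and Mcm7, near the floor, 0.21. Mcm7 passed the brightness filter through its Ali35 arrays, all 4 of which reached 16, against 1 wild-type array. Rrm1 had -0.28 ± 0.13 and Cdt1 0.08 ± 0.14. Tyms, which fell in bone, read 109, 98.7, 96.0 and 105 on the wild-type arrays and 114, 123, 113 and 117 on the Ali35 arrays. All Ali35 arrays were above all wild-type arrays, and the log2 change of 0.19 ± 0.09 did not pass (adjusted p = 0.204).

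Of the 17 genes with a probe that were not tested in brain, Ccne1 read 24.4, 24.1, 15.6 and 16.2 on the wild-type arrays and 3.25, 6.70, 8.37 and 5.27 on the Ali35 arrays, so that every Ali35 array was below the floor and below every wild-type array. Mcm3 read 10.8 to 22.1, Pcna 1.12 to 21.1 and the brighter Rrm2 probe 7.73 to 17.1. Cdc6, Ccne2, Cdc25c and Tpx2 also reached 16 on at least 1 brain array, and Ccna2, Ccnb2, Bub1, Ttk, Cenpe, Kif20a, Ube2c, Pola1 and Prim1 on none.

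Among further genes of the pathways 0 of 25 mitosis probes, 1 of 37 replication probes and 0 of 37 regulator probes were called in brain by limma, with 3, 8 and 4 at an unadjusted p under 0.05, against 3.64% and 23.6% of all probes. The called gene was Nasp, with -0.40 ± 0.09 (adjusted p = 0.0464) on its brighter probe, all Ali35 arrays being lower, and 0.46 ± 0.17 on the other. The next by p were Spc24 (-0.47), Anln (0.34) and Kif2c (-0.25) of mitosis, Cdc7 (0.31) and Clspn (-0.50) of replication, and E2f2 (-0.62 on its dimmer probe), Cdkn1c (0.23) and Ccnd1 (0.23) of the regulators. None of these passed.

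Other cell types moved between the brain arrays too. The summed level of 5 tested erythroid genes was 7228 to 12562 in wild type and 4142 to 7623 in Ali35, and Alas2 fell. That of 6 oligodendrocyte lineage genes was 3222 to 3865 and 2611 to 3421, and Cnp fell. For 7 neural progenitor genes the sums, led by Slc1a3, were 4554 to 5216 and 5491 to 6095, and Sox2 rose, while the median log2 change of the 7 was -0.20.

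For 3 granule neuron precursor genes the sums were 404 to 529.7 in wild type and 340 to 443 in Ali35, with none called, and for 5 neuronal genes 10869 to 11748 and 10694 to 11227, with Map2 called lower on 1 probe. Sums of 5 microglial genes were 228 to 242 and 190.2 to 230.2, and those of 3 endothelial genes 485 to 539 and 421 to 486, with none called. Of the megakaryocyte, osteoblast, cartilage and neutrophil precursor lists 1 to 3 genes each were tested in brain, and none was called. None of the 10 B-cell precursor genes with a probe was bright enough to test in brain. The part of these cell types in the lower mitosis genes was not tested.

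The difference between the tissues was tested for the 32 probes bright enough in both. For 10 of them (31.2%) the change in bone differed from the change in brain at an adjusted p under 0.05, against 24.4% of the 9225 probes tested in both. The bone change was above the brain change for 8 of the 32 (25%) and below it for 2 (6.25%), against 12.9% and 11.6% of all probes. Foxm1 differed by 1.04 ± 0.21 and 0.85 ± 0.21 on its 2 probes (adjusted p = 0.00255 and 0.00731), being higher in Ali35 bone and not in Ali35 brain. In brain these Foxm1 probes averaged only 22.7 and 28.0, not far above the floor of 16. Tyms differed by -1.05 ± 0.22 (adjusted p = 0.00369), being lower in bone with -0.85 and at 0.19 in brain. Cdc20 differed by 0.79 ± 0.16 (adjusted p = 0.00232), on the probe called lower in brain, and the dimmer Cdca3 probe by 0.62 ± 0.18 (adjusted p = 0.0203). These 5 probes kept their calls without each of the 16 arrays in turn. Of them, the dimmer Cdca3 probe passed the brightness filter in brain through its wild-type arrays, so its call is no further support. With a floor of 32 the difference for that probe reversed to -0.10. The brighter Cdca3 probe differed by 0.49 ± 0.21 (adjusted p = 0.0887) and the brightest Cdc20 probe by 0.33 ± 0.18 (adjusted p = 0.179). The remaining Cdc20 probes differed by 0.36 and -0.19, and none of these differences was called.

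The difference was also called for Plk1 (0.56), Cdt1 (0.70), Mcm4 (0.50), Mcm5 (0.43) and Cdca8 (-0.91). Each of these 5 calls was lost without at least 4 of the 16 arrays in turn, with an adjusted p up to 0.0922. The count of called probes was 6 without wild-type bone replicate 1 or 4 or Ali35 bone replicate 3, and 5 without Ali35 brain replicate 2. The difference was not called for Nusap1, whose brightest probe had -0.42 in bone and -0.57 in brain, nor for Cdk1, with -0.65 and -0.28.

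**Figure D5:**
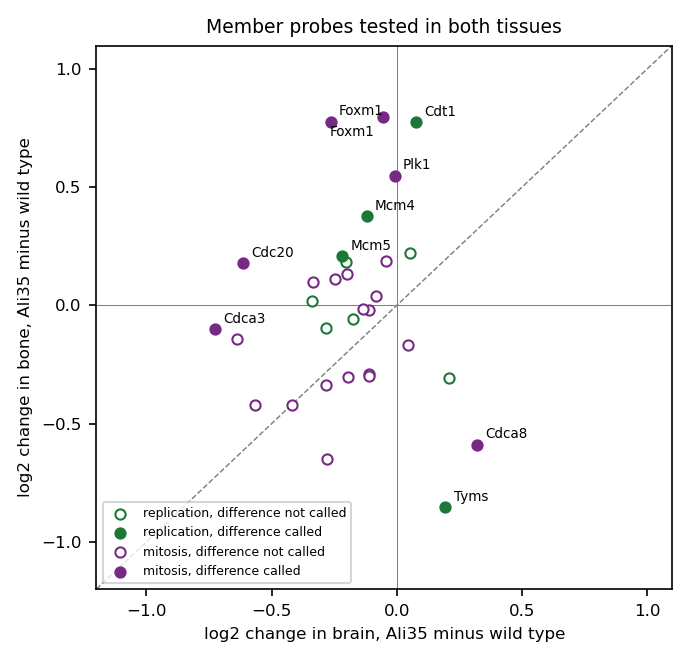
Log2 change in bone (vertical) against log2 change in brain (horizontal), Ali35 minus wild type, for the 32 probes tested in both tissues; filled points have a called difference between the tissues and are named, and the dashed line marks equal change. Foxm1, Cdt1 and Plk1 lie high near the vertical axis, Tyms and Cdca8 lie low on the right, and Cdc20 and Cdca3 lie on the left near no change in bone.

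Levels in bone and brain can be set side by side only as a description, since the tissues appear to have been normalized separately and differ in age. For the 23 genes tested in both, the median intensity in bone was 17.9 times that in brain, with a range from 2.11 to 33.4, while the median over all 9225 probes was 2.11 times. The replication genes had a median ratio of 17.3 and the mitosis genes 19.3. The lowest bone array was above the highest brain array for 22 of the 23 genes, the exception being Mcm7. The median percentile was 95.3 in bone and 75.5 in brain, and all 23 genes stood at a higher percentile in bone.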

How the data were processed

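Total RNA of bone and brain was hybridized as biotin-labelled cRNA to one-colour bead arrays, per the labels' protocols. The deposited values are linear intensity values per probe, and the submitters' processing notes name GenomeStudio 2011.1. The deposited intensities hold values below 0 and have nearly equal quartiles within a tissue, as after background subtraction and scaling within a tissue. The normalization steps are not given in the sources used here, and a further table, not normalized, had 32 columns (16 of intensity, 16 of detection) with names that match no label, and was not used.

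Intensities below 16 were set to 16 before log2 was taken. Probes under 16 on more than 4 of the 8 arrays of a tissue were left out there. Floor and filter follow an earlier analysis of these data. Each tissue was fitted with limma 3.58.1 (lmFit and eBayes, 6 residual degrees of freedom) in R 4.3.3, and p-values were adjusted by Benjamini-Hochberg over all probes tested, 12223 in bone and 10922 in brain. The difference between tissues was an interaction term over 16 arrays. All tests were two-sided. Fold changes are on the log2 scale after the floor, which understates those of dim probes. The fits were tested on simulated data.

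The brightest probe stands for a gene unless several are given, and probes of 1 gene are not independent. Symbols came from the platform annotation, updated through Entrez identifiers: 23978 of 25697 probes had 1 symbol, 1719 none, and 23962 matched RefSeq. Named were genes called, set cell cycle genes, the largest changes per role, the 3 of lowest p in each further list (1 of them is not reported here), and the brightest and called markers. The genes, lists and tests were chosen with earlier results of these data known. Alternatives covered floor, filter, scaling, variance trend, replicate number as a block, and leaving out each array. On each array 47.3% (bone) or 42.3% (brain) of probes reached 16, and the number of mice limits precision. Replicates are separate mice by their labels. Figures were drawn with matplotlib 3.10.9.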

Additional observations from a re-analysis of the deposited data

Results flagged for a closer look

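Probes of 9 genes had changes that differed between bone and brain by the interaction term, given here on the log2 scale as bone minus brain. Those above 0 were 1.04 and 0.85 for the 2 probes of Foxm1, 0.79 for a probe of Cdc20, 0.70 for Cdt1, 0.62 for the dimmer probe of Cdca3, 0.56 for Plk1, 0.50 for Mcm4 and 0.43 for Mcm5. Those below 0 were -1.05 for Tyms and -0.91 for Cdca8. The dimmer Cdca3 probe passed the brightness filter in brain through its wild-type arrays. On the brightest probes of Cdc20 and Cdca3 the differences were 0.33 and 0.49, and neither was called. Nor was a difference called on the remaining Cdc20 probes (0.36 and -0.19). Tissue and age changed together, so that which of them goes with these differences cannot be told apart.

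One sample lay far from the rest of its group. On the dimmer Foxm1 probe, wild-type brain replicate 1 read 20.9 and the other 3 wild-type brain arrays 25.7 to 26.6, a gap past Dixon's 95% critical value for 4 samples. Such a gap was looked for in 62 groups of arrays, and chance alone gives about 1 in 20.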

How the results depend on the processing

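With a floor of 8, quantile normalization or median centring the same 10 probes were called in bone. With a floor of 32 the count was also 10, with Kif11 in place of the dim Tyms probe. It was 12 when the mean had to reach 32 and 13 with an intensity trend, each with 9 of the 10. Without the filter for brightness it was 3, with 0 higher and 3 lower, of 25697 probes tested. Leaving out each array gave 6 to 12 probes in bone, 3 to 6 higher and 3 to 7 lower. In brain, where all calls were lower, the count of 4 became 3 with a floor of 8, 1 with a floor of 32 and 0 with no filter or with the covariate, and 1 to 3 with an array left out. The cause of these losses was not tested. Without the filter the variances of the fit changed along with the number of probes. The tissue difference was called for 9 or 10 probes under the other settings and for 5 to 11 with an array left out. For the dimmer Cdca3 probe it reversed to -0.10 with a floor of 32 (adjusted p = 0.656), which lies above all its brain values but 1. Changes of genes that are no members were not refitted with arrays left out.

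With the replicate number as a block 10 probes were called in bone and 2 in brain, where the brighter Cdca3 probe and Nusap1 lost their calls. The labels tie the numbers to no shared animal, litter or day, and not every same-numbered pair correlated above 0.1: deviations correlated at -0.12 to 0.16 in bone and 0.01 to 0.14 in brain across probes. Wild-type replicate 1 in bone and 3 and 4 in brain correlated more with the same-numbered Ali35 array than with the other Ali35 arrays. Pairs with unlike numbers reached 0.23 in bone and 0.17 in brain. The planned background correction of the non-normalized table was not run, since its columns match no sample. The arrays' number and, in brain, the low signal of most of these genes limit what could be called.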
